A study of Mus musculus with 2 samples.

Results

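Macrophage and myeloid genes were followed in the epididymal white fat of PPARβ/δ knockout and wild-type mice. PPARβ/δ, the product of Ppard, is a nuclear receptor that binds fatty acids. The list holds 35 genes and was taken whole, with every probe set whose annotation names 1 of them alone: 34 genes with 48 probe sets, of 12394 genes and 22690 probe sets in all. Lyn, a Src-family kinase, was not analysed here. The genes were grouped as macrophage identity (12 genes), resident macrophage (3), lipid-associated macrophage (2), pan-leukocyte (7), Fc receptors and their adaptors (5), NADPH oxidase (3) and lineage factor and signalling (3, with Lyn).

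The knockout pool was RNA of 5 male PPARβ/δ knockout animals, aged 12 weeks, on a mixed Sv129/C57BL/6 background. The wild-type pool was RNA of 5 males labelled 129S1/SvJae, aged 12 to 16 weeks, which the design text instead calls littermates of the knockouts. All animals ate standard chow, and each pool was hybridised to 1 Affymetrix mouse array, so strain and genotype cannot be told apart and no spread between animals, p-value or SD exists. In whole tissue, fewer macrophages and less of a transcript per macrophage cannot be told apart.

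Macrophages are the main immune cells of a lean fat pad. Resident macrophages carry scavenging receptors such as the mannose receptor, whereas lipid-associated macrophages, known from obese fat, surround dying adipocytes, carry the lipid receptor Trem2 and clear lipid through lysosomes. Both depend on the growth factor receptor Csf1r and on the lineage factor PU.1 (gene Spi1), and both share with other white blood cells a set of surface and cytoskeletal proteins that mark any leukocyte. PPARβ/δ and its relative PPARγ are known as regulators of the resident, alternatively activated state of macrophages.

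Most of the macrophage and myeloid genes were lower in the knockout pool, all 3 resident markers among them, while Aif1 and Lcp1 were higher and Cd52 was level. Of the 34 genes with a probe set 28 were lower by any amount, against 58.3% of all genes, and 10 were at least 2-fold lower, against 4.97% of all genes. One gene, Aif1, was at least 2-fold higher, against 7.89% of all genes. The median log2 difference, knockout minus wild type, was -0.61 over the 34 genes and -0.07 over all 12394 genes. Testis germ cell genes were higher in the same pool, 18 of 18 with a summed intensity of 71708 in the knockout pool and 3884 in the wild-type pool, and adipocyte and endothelial genes were lower (medians of -1.20 and -0.96 at the floor defined next); the part of germ cell RNA in the lower values was not tested. An intensity of 32 (log2 of 5) was used as a floor, since background correction pulls dim probe sets together. It was reached on at least 1 array by 24 of the 34 genes, of which 19 were lower (55.5% of the 6533 genes that reached it), 10 at least 2-fold lower (9.14%) and 1 at least 2-fold higher (13.7%). A gene that passed through 1 array alone had to differ, so these counts only describe. These counts took values below the floor as measured. With such values set to the floor, 8 of the 24 genes were at least 2-fold lower, against 7.99% of the 6533 genes. With 32 added to each intensity before taking log2, 4 genes were at least 2-fold lower, against 5.25%. At or above the floor on both arrays were 17 genes, 13 of them lower (59% of all such genes) and 6 at least 2-fold lower (8.82%), with a median of -0.78 against -0.12 over all such genes. Among 2137 genes of the array with several probe sets above the floor, the log2 differences of a gene's own probe sets varied with a median SD of 0.25 (0.75 at the 90th percentile), which is part of the technical error and holds nothing of the spread between animals.

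**Figure D1:**
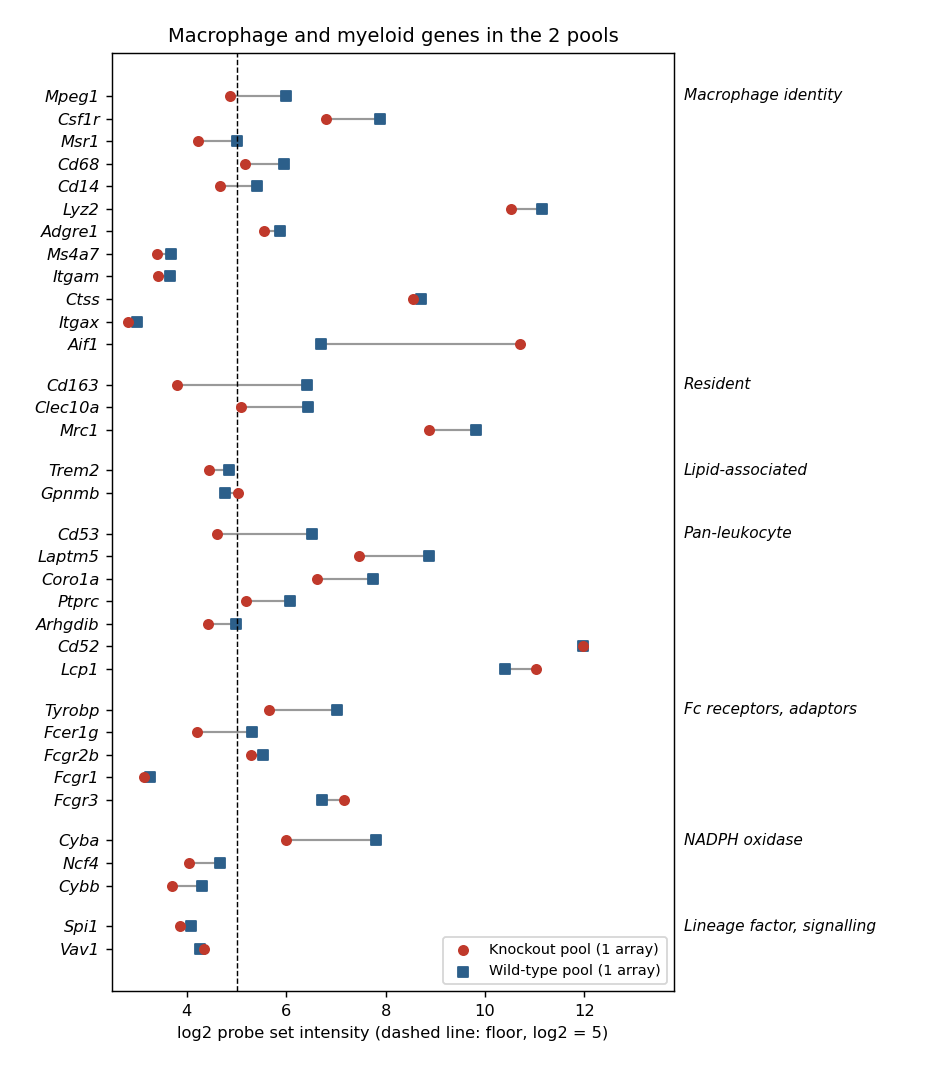
Log2 intensity of each of the 34 genes in the knockout pool (red circles) and the wild-type pool (blue squares), 1 array each, ordered within groups by difference; the dashed line is the floor, log2 of 5. Most red points lie left of their blue partner, with Aif1, Lcp1, Fcgr3, Gpnmb and Vav1 to the right; levels of different genes are not comparable, since each probe set binds with its own strength.

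**Figure D2:**
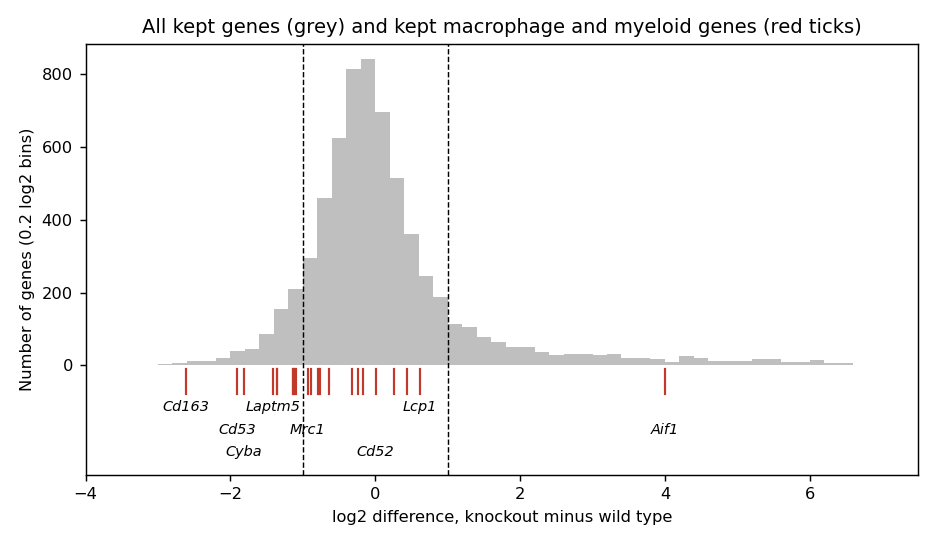
Histogram of the log2 difference, knockout minus wild type, over the 6533 genes that reached the floor (grey), with the 24 macrophage and myeloid genes that reached it as red ticks; dashed lines mark 2-fold. The ticks lie mostly on the left side of the histogram; Cd163 and Cd53, at its left end, are below the floor in the knockout pool, so their exact places are not measured, and Aif1 stands alone in the right tail at 3.999.

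Promoters of 3 lower genes and of the highest gene are shown here, because PU.1 is known to bind the promoters of many macrophage genes and its DNA core is GAGGAA. The windows run from 250 bases before to 50 bases after the RefSeq start, build GRCm38.p6, written 5′ to 3′ on the strand of the gene. Capitals mark GAGGAA or its reverse complement TTCCTC. Cd163 (chr6:124304401-124304700, plus strand), Cd53 (chr3:106790100-106790399, minus strand) and Laptm5 (chr4:130913066-130913365, plus strand) were lower in the knockout pool by more than 2-fold, and Aif1 (chr17:35176003-35176302, minus strand) was the highest.
Cd163: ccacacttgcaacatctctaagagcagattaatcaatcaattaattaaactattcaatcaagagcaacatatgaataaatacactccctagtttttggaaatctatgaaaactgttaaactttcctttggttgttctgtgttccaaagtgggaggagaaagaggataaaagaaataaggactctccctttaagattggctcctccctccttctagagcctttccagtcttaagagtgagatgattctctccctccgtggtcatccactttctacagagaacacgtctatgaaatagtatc
Cd53: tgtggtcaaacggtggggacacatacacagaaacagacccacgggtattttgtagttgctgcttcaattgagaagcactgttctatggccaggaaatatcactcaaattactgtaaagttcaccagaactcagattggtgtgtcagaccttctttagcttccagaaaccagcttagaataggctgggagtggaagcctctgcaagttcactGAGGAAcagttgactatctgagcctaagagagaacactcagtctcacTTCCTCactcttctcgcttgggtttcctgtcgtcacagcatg
Laptm5: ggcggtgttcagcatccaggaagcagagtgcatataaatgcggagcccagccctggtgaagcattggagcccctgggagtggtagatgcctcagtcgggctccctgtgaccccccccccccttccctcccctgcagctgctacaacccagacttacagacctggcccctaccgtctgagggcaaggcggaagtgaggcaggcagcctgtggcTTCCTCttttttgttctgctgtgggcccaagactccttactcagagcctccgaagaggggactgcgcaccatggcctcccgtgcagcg
Aif1: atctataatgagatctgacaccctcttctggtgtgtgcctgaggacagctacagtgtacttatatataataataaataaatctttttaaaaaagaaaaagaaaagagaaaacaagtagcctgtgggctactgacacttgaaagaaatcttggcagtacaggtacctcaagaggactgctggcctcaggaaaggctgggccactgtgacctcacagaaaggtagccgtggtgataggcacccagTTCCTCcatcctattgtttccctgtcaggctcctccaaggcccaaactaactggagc

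The core was found on either strand once in the Laptm5 and the Aif1 window and at 2 places in the Cd53 window, and these letters were not in the Cd163 window. Of the 25 genes of the list that matched a window by symbol, 15 held the core in at least 1 of their windows, against 31.3% of all 27025 genes with a window. The longer form GAGGAAGT, which contains the core, was in the windows of Cd53, Ctss and Vav1, against 3.69% of all genes. The core stood in windows of genes that were lower (Cd53, Laptm5) and of the gene that was highest (Aif1); a match describes the letters and is no evidence of binding.

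Resident macrophage receptors were all lower. Cd163, the scavenger receptor for haemoglobin bound to haptoglobin, was at 14.01 in the knockout pool, below the floor, against 85.7 in the wild-type pool, so it was at least 2.68-fold lower. Clec10a, a lectin that binds galactose-type sugars, was at 33.8 in the knockout pool and 86.4 in the wild-type pool, 2.55-fold lower. Mrc1, the mannose receptor, was at 470 in the knockout pool and 897 in the wild-type pool, 1.91-fold lower. The median log2 difference of the 3 genes was -1.35, the value of Clec10a, which was just above the floor in the knockout pool. With 32 added to each intensity the median was -0.89.

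Further genes of resident macrophages were lower too: all 11 that had a probe set, with a median log2 difference of -0.78, and all 7 that reached the floor. Of all genes with a probe set 58.3% were lower, and of those that reached the floor 55.5%. Mgl2, Pf4 and Fcna reached it in the wild-type pool alone and so had to be lower. The 4 genes at or above the floor on both arrays were all lower, against 59% of all such genes. The lowest were Pf4, a chemokine of platelets and resident macrophages (31.6 in the knockout pool, just below the floor, against 182 in the wild-type pool, at least 5.69-fold lower), and F13a1, the coagulation factor XIII A chain (75.9 in the knockout pool against 219 in the wild-type pool, 2.88-fold lower). Among the 7 at the floor, the smallest differences were those of the growth factor Gas6 (375 in the knockout pool against 573 in the wild-type pool) and the ficolin Fcna (29.4, below the floor, against 45.8). Red cell genes, a sign of blood in the tissue, moved with them: Alas2 was at 21.7 in the knockout pool, below the floor, against 155 in the wild-type pool. The summed intensity of the 4 red cell genes with a probe set was 68.8 in the knockout pool and 258 in the wild-type pool, and 3 of them reached the floor, in the wild-type pool. The part of blood in the resident genes was not tested.

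The lipid-associated pair gave no usable difference. Trem2, the lipid-sensing receptor, was below the floor on both arrays at both of its probe sets (14.2 and 21.8 in the knockout pool, 15.9 and 28.7 in the wild-type pool). Gpnmb, a glycoprotein of lysosome-rich macrophages, was at 32.6 in the knockout pool against 27.2 in the wild-type pool, under the floor, which gives a bound of only 1.02-fold higher. The median log2 difference without the floor was -0.07 for the pair, -0.88 for the 7 pan-leukocyte genes and -1.35 for the resident genes. The first rests on dim values. The other medians are those of Ptprc (36.6 in the knockout pool) and Clec10a (33.8), both not far above the floor there.

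Lipid-handling and lysosomal genes that such macrophages also use were brighter, 14 of 15 being above the floor on both arrays, and adipocytes and other cells express them too. Of the 15 with a probe set 12 were lower and 3 at least 2-fold lower, with a median of -0.60. Of all genes with a probe set 58.3% were lower and 4.97% at least 2-fold lower. Lgals3, the lectin galectin-3, was at 382 in the knockout pool and 1156 in the wild-type pool, 3.02-fold lower. Ctsz, a lysosomal cathepsin, was at 501 in the knockout pool and 1373 in the wild-type pool, 2.74-fold lower at its brightest probe set. Its 3 probe sets gave log2 differences from -2.14 to -0.71, so the size is uncertain. At the other end, the tetraspanin Cd9 was at 1279 in the knockout pool and 1136 in the wild-type pool, and the cathepsin Ctsl at 4662 in the knockout pool and 4152 in the wild-type pool. Mmp12, the macrophage elastase, was below the floor on both arrays.

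Among the macrophage identity genes 11 of 12 were lower, against 58.3% of all genes, mostly by less than 2-fold. Of the 6 at or above the floor on both arrays 5 were lower, against 59% of all such genes. Csf1r, the receptor for macrophage colony-stimulating factor, had 3 probe sets, at 111, 63.5 and 42.8 in the knockout pool against 236, 122 and 86.5 in the wild-type pool, with log2 differences of -1.09, -0.94 and -1.01. All 3 gave nearly the same difference. Mpeg1, a pore-forming protein of the phagosome, was at 29.0 in the knockout pool, below the floor, against 63.7 in the wild-type pool, at least 1.99-fold lower. Lyz2, lysozyme M, was at 1464 in the knockout pool and 2271 in the wild-type pool, 1.55-fold lower. Cd68, a lysosomal membrane protein, was at 36.0 in the knockout pool and 61.8 in the wild-type pool, 1.72-fold lower.

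The remaining identity genes differed less or lay near the floor. Adgre1, which encodes the F4/80 antigen, was at 47.0 in the knockout pool and 58.8 in the wild-type pool, 1.25-fold lower. Ctss, a cathepsin that trims the invariant chain of MHC class II, was at 374 in the knockout pool and 421 in the wild-type pool. The log2 difference of -0.17, at its single probe set, is smaller than the median SD of 0.25 between probe sets of other genes. That SD holds nothing of the spread between animals. Cd14, the lipopolysaccharide co-receptor, was at 25.3 in the knockout pool, below the floor, and 42.8 in the wild-type pool. The scavenger receptor Msr1 was at 18.6 in the knockout pool, below the floor, and 32.3 in the wild-type pool at the brightest of its 4 probe sets; the other 3 did not reach the floor on either array and were slightly higher in the knockout pool. The integrins Itgam and Itgax, and Ms4a7, a marker of resident macrophages, stayed below the floor on both arrays. Their intensities ran from 7.09 to 10.8 in the knockout pool and from 7.95 to 12.9 in the wild-type pool.

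Aif1 went the other way by the widest margin of the list. It encodes the calcium-binding protein IBA1, used as a macrophage and microglia marker and described in testis as well. Its single probe set was at 1658 in the knockout pool and 104 in the wild-type pool, 16.0-fold higher, a log2 difference of 3.999. Testis germ cell genes were higher in the same pool: all 18 had a probe set and were at least 2-fold higher, by 2.25 to 6.45 on the log2 scale (Sycp3 and Meig1), with a median of 4.89. Of all genes with a probe set 7.89% were at least 2-fold higher. The part of germ cell RNA in the Aif1 value was not tested. The probe set belongs to a class whose probes can match more than 1 transcript.

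Pan-leukocyte genes split. Cd53, a leukocyte tetraspanin, was at 24.4 in the knockout pool, below the floor, against 91.3 in the wild-type pool, at least 2.85-fold lower. Laptm5, a lysosomal membrane protein of blood cells, was at 178 in the knockout pool and 471 in the wild-type pool, 2.65-fold lower at its brightest probe set. That probe set and its other ones can match more than 1 transcript. The other ones did not reach the floor on either array and were also lower in the knockout pool, with log2 differences of -0.44 and -0.50. Coro1a, an actin-binding protein of leukocytes, was 2.21-fold lower at its brightest probe set (97.7 in the knockout pool, 215 in the wild-type pool) and differed by -0.44 at another (34.96 in the knockout pool, 47.3 in the wild-type pool), so its size is uncertain. Ptprc, the common leukocyte antigen CD45, was at 36.6 in the knockout pool and 67.5 in the wild-type pool, 1.84-fold lower.

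**Figure D3:**
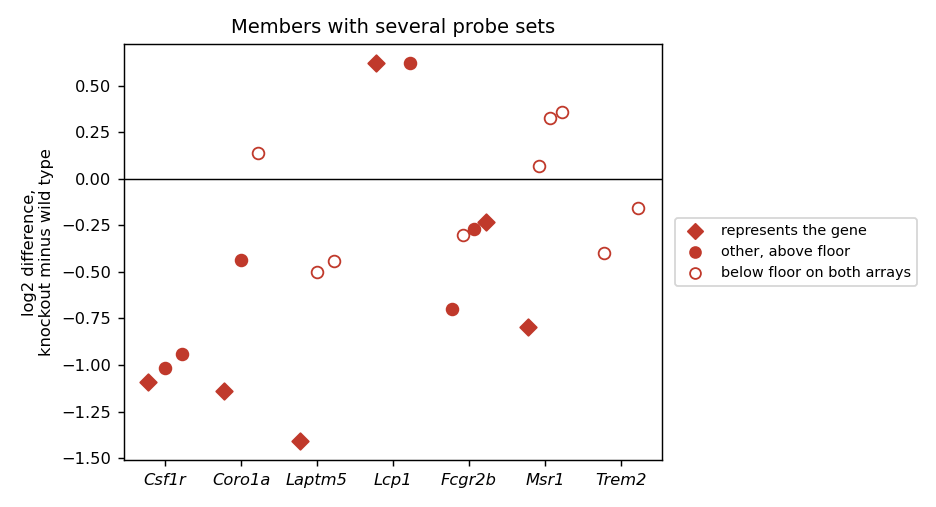
Log2 difference, knockout minus wild type, at every probe set of the 7 genes that have several; diamonds represent the gene, circles are further probe sets above the floor and open circles are below the floor on both arrays. The probe sets of Csf1r and of Lcp1 lie close together, and those of Coro1a and Laptm5 range widely. The dim ones of Msr1 and of Coro1a lie on the other side of 0.

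Cd52 and Lcp1 were not lower. Cd52, a small glycoprotein of lymphocytes and macrophages that epididymal epithelium also makes and passes to sperm, was at 4027 in the knockout pool and 4016 in the wild-type pool, a log2 difference of 0.004. Epididymis genes were bright in both pools: of 8 with a probe set 7 were higher in the knockout pool, with a median of 0.32 and differences from -0.03 (Cuzd1) to 1.57 (Defb1). Lcp1, the actin-bundling protein L-plastin, was higher at both of its probe sets, at 2082 and 870 in the knockout pool against 1355 and 566 in the wild-type pool, each 1.54-fold. Both probe sets gave a log2 difference of 0.62. Arhgdib was lower as measured but below the floor on both arrays (21.4 in the knockout pool, 31.7 in the wild-type pool). The summed epididymis intensity was 57087 in the knockout pool and 49089 in the wild-type pool, and the part of epididymal RNA in Cd52 and Lcp1 was not tested. The group's median was -1.01 over the 6 genes at the floor, but 0.004 over the 3 that remain (Cd52, Cd53, Lcp1) when probe sets that can match several transcripts are left out. That step took out Ptprc (-0.88), Coro1a (-1.14) and Laptm5 (-1.41). It went by the ending of the probe set's name, and whether these probe sets match other genes was not tested.

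Further pan-leukocyte genes were mostly too dim to read: 15 of 19 did not reach the floor on either array, among them Itgb2, the shared chain of the leukocyte integrins. Of the 4 that reached it Cd44, the hyaluronan receptor, was at 14.2 in the knockout pool, below the floor, against 35.8 in the wild-type pool. Tmsb4x, the actin-sequestering thymosin β4, was at 8043 in the knockout pool and 7900 in the wild-type pool. Inpp5d, the inositol phosphatase SHIP1, was at 67.9 in the knockout pool and 41.9 in the wild-type pool, and the adaptor Fyb at 101 in the knockout pool and 59.6 in the wild-type pool, 1.62-fold and 1.69-fold higher.

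Fc receptors and the adaptors that signal for them differed in direction. Tyrobp, the adaptor DAP12 that carries the signal of Trem2, was at 50.3 in the knockout pool and 129 in the wild-type pool, 2.57-fold lower. Fcer1g, the common γ chain of activating Fc receptors, was at 18.4 in the knockout pool, below the floor, and 39.6 in the wild-type pool, at least 1.24-fold lower. Fcgr3, an activating low-affinity receptor for immunoglobulin G, was at 142 in the knockout pool and 105 in the wild-type pool, 1.36-fold higher. Thus the receptor was higher where its γ chain was lower. Fcgr2b, the inhibitory receptor, was at 39.4 in the knockout pool and 46.3 in the wild-type pool at its brightest probe set, with log2 differences of -0.70 to -0.23 over its 4 probe sets. Fcgr1, the high-affinity receptor, was below the floor on both arrays (8.79 in the knockout pool, 9.55 in the wild-type pool).

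Of the phagocyte NADPH oxidase, which makes superoxide, only the small membrane subunit Cyba reached the floor. It was at 63.3 in the knockout pool and 222 in the wild-type pool, 3.51-fold lower. Cyba is also expressed in cells that are not phagocytes. Its catalytic partner Cybb was at 13.1 in the knockout pool and 19.8 in the wild-type pool, and the cytosolic subunit Ncf4 at 16.5 in the knockout pool and 25.5 in the wild-type pool, all below the floor. The lineage factor Spi1 (14.5 in the knockout pool, 17.0 in the wild-type pool) and the exchange factor Vav1 (20.2 in the knockout pool, 19.3 in the wild-type pool) were below the floor too. Of the 10 genes of the list below the floor on both arrays 9 were lower in the knockout pool, against 61.4% of all genes below it, with a median of -0.26; such dim values give no fold.

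Ligands, receptors and signalling proteins of myeloid cells beyond the list were mostly dim as well, with 22 of 30 below the floor on both arrays. Csf1, the macrophage growth factor that binds Csf1r, was at 32.7 in the knockout pool, just above the floor, and 86.7 in the wild-type pool, 2.65-fold lower. Only 1 of its 4 probe sets reached the floor. Il34, the other ligand of that receptor, was below the floor on both arrays. The inhibitory receptor Pirb was at 21.6 in the knockout pool, below the floor, against 56.7 in the wild-type pool, at least 1.77-fold lower. The kinase Syk, which acts downstream of Fcer1g and Tyrobp, was at 88.2 in the knockout pool and 56.4 in the wild-type pool, 1.56-fold higher, and the Toll receptor adaptor Myd88 at 59.5 in the knockout pool and 51.1 in the wild-type pool. Of the 30 genes 24 were lower, against 58.3% of all genes, with a median of -0.35 without the floor. Of the 6 at or above the floor on both arrays 3 were lower, against 59% of all such genes.

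Genes of the fat pad's other cells give a scale for these differences. Of 11 adipocyte genes 10 had lower values in the knockout pool, with a median log2 difference of -1.20, and Lep was the lowest at -2.87. Of 10 endothelial genes at the floor 9 were lower, with a median of -0.96, and of 11 fibroblast and preadipocyte genes 8 were lower, with a median of -0.57. Of all genes at the floor 55.5% were lower. The 24 macrophage and myeloid genes at the floor had a median of -0.84, between those of the endothelial and the fibroblast genes. Some of the 24 reached the floor in the wild-type pool alone and so had to be lower. With the floor reached on both arrays the medians were -0.78 for the macrophage and myeloid, -0.96 for the endothelial and -0.54 for the fibroblast and preadipocyte genes. Whether these lists differ from each other was not tested. Summed intensity of the adipocyte genes was 30670 in the knockout pool and 48255 in the wild-type pool, and of the endothelial genes 813 in the knockout pool and 1560 in the wild-type pool. That of the 34 macrophage and myeloid genes was nearly level, at 11216 in the knockout pool and 11331 in the wild-type pool. A sum follows the brightest genes, here among others Cd52, Lcp1 and Aif1, which were not lower. Of other white blood cells, all 12 T and NK cell genes and all 10 granulocyte and mast cell genes with a probe set failed to reach the floor on either array. Of the B and plasma cell genes Ighm was at 76.7 in the knockout pool and 321 in the wild-type pool, and Jchain at 53.1 in the knockout pool and 69.3 in the wild-type pool, and the other 6 with a probe set were below the floor.

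**Figure D4:**
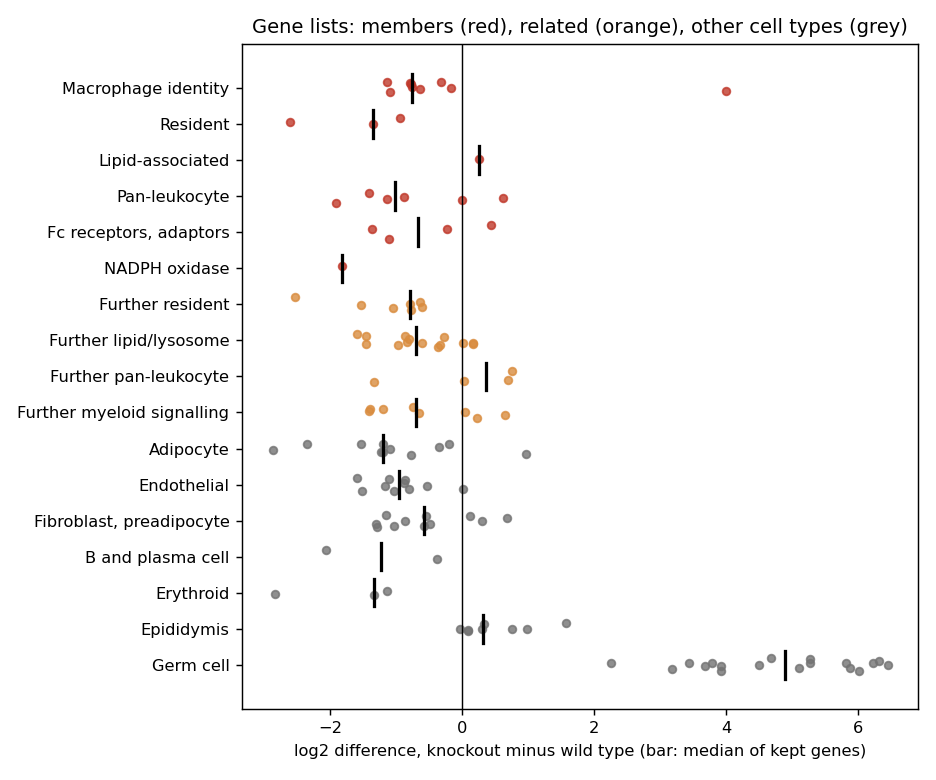
Log2 difference, knockout minus wild type, of each gene that reached the floor (1 point a gene), with the median of each list as a black bar; red lists are the macrophage and myeloid genes, orange lists related genes and grey lists other cell types. The resident lists lie wholly left of 0, where genes that reached the floor in the wild-type pool alone had to lie. Aif1 of the macrophage identity list stands at 3.999, and the epididymis genes run from -0.03 to 1.57.

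The targeted gene gave no check of the labels, since Ppard was below the floor on both arrays, at 6.27 in the knockout pool and 6.58 in the wild-type pool. Median intensity over all probe sets was 23.0 in the knockout pool and 22.3 in the wild-type pool, and 43.1% of probe sets in the knockout pool and 41.96% in the wild-type pool reached the floor.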

How the data were processed

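RNA of 5 mice per genotype was pooled and each pool hybridised to 1 array. The deposited values are probe set intensities on a linear scale, for which the submitters' processing notes name GCRMA 2.20 as the authors' tool; the set of arrays normalised jointly is not given in these sources. GCRMA compresses dim values, hence the floor. The values were turned into log2 here. Probe sets were named from the array's annotation, updated by Entrez identifier to GRCm38.p6 symbols (20364 of 20393 that name 1 gene matched; 691 naming several genes and 1606 naming none were left out of gene comparisons). Of a gene's probe sets that reached the floor, the one with the highest mean stood for it. Each difference is knockout minus wild type on the log2 scale, and a value below the floor was set to 32 for an "at least" fold. No test was possible with 1 array a genotype; the number of arrays limits the precision. All members are named, with the 2 lowest and 2 highest kept genes of each related list and some extremes of the other cell types' lists (Cebpa is in 2 lists); others, such as Itgb2, Mmp12 and Il34, were chosen after their values were seen. The members and lists were chosen with earlier results of these data known. Python 3.11.15, pandas 2.3.3, numpy 2.4.6 and statsmodels 0.14.6 were used.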

Additional observations from a re-analysis of the deposited data

How the results depend on the processing

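With 1 array a genotype no spread exists, so a difference was taken to have moved when it changed by over 1.5-fold, and a count when it changed by over 1.5 times. The processing was changed in 11 ways listed beforehand and in 1 way chosen after seeing the data (the floor on the mean of both arrays). The median over the list ran from -1.01 to -0.52, always below 0. The number of genes lower was 19 of 24, against 55.5% of 6533 genes. It was 12 of 16 with a floor of log2 6, against 55.5% of 5049 genes. The number at least 2-fold lower was 10, and 8 with values below the floor set to it. It was 6 with the floor reached on both arrays. It was 4 with log2 of the intensity plus 32, which shrinks differences of dim genes by construction. The lipid-associated median, 0.26, was -0.068 with a floor of log2 4 and with no floor, where Trem2 enters. The NADPH oxidase median, -1.81, was -0.63 under these 2 settings, where Cybb and Ncf4 enter. The pan-leukocyte median, -1.01, was 0.0039 without probe sets that can match several transcripts, which leaves 3 genes. These probe sets, among them those of Ptprc, Coro1a and Laptm5, were picked by name ending. Whether they match other genes was not tested. The resident median, -1.35, was -1.14 with the floor reached on both arrays and -0.89 with 32 added to each intensity. Under the latter setting Clec10a, just above the floor in the knockout pool, differed by -0.85. No single gene of the 24 changed direction under any alternative that measured it, but most alternatives could not reverse a sign. Another floor or an added 32 keeps the sign of a probe set, and no gene had probe sets of both signs at the floor. Only subtracting the median of all genes or the trend with intensity could have reversed one. Removing the trend with intensity moved the median of all genes by 0.11 and left 19 genes of the list lower and 5 higher. No paired analysis was possible because each genotype has 1 array. Signals near the floor limit Msr1, Fcer1g, Gpnmb, Cd163, Cd53, Mpeg1 and Cd14, each below it on 1 array: with values below the floor set to it, the differences of Msr1, Fcer1g and Cd163 were -0.01, -0.31 and -1.42, and with 32 added to each intensity that of Cd53 was -1.13, against -1.90.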
